A study of Mus musculus with 18 samples.

Results

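The homeobox and Hand factors of the developing jaw were followed across 3 mandibular tissues and both genotypes. The 10 genes were taken by symbol from the 38243 genes in the count files, and all 10 were found. They are the homeobox genes *Dlx1*, *Dlx2*, *Dlx3*, *Dlx5*, *Dlx6*, *Msx1*, *Msx2* and *Barx1* and the basic helix-loop-helix genes *Hand1* and *Hand2*. RNA was taken by laser capture microdissection from female mouse embryos at embryonic day 16.5 (E16.5), of strain C57BL/6 in the labels and C57BL6/J in the study's methods. Of these, 3 carried the Fgfr2 S252W mutation of Apert syndrome on one allele (Fgfr2+/S252W) and 3 were unaffected Fgfr2+/+ littermates, with no other allele or treatment named in the labels. Mandibular bone, Meckel's cartilage (MC) and mandibular condylar cartilage gave 3 libraries each per genotype, 18 libraries in all. That the 3 tissues came from the same 6 embryos was inferred from the sample codes and is not stated in words.

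Dlx proteins are homeodomain transcription factors encoded in linked gene pairs that are transcribed towards each other, and their nested domains along the pharyngeal arches give upper and lower jaw their identity. In the mandibular arch, endothelin 1 acts through its receptor EDNRA to induce *Dlx5* and *Dlx6*, which in turn induce *Hand2* distally. Bone morphogenetic proteins induce *Msx1* and *Msx2*, and *Barx1* marks mesenchyme nearer the jaw joint. Several of the same factors act again later in the skeleton, where *Dlx3*, *Dlx5* and *Msx2* take part in osteoblast differentiation. MC is the primary cartilage of the lower jaw, and the condylar cartilage is a secondary cartilage that forms beside the bone.

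Total counts lay between 8218548 and 15585778 per library. The gene Gm42418 took 5.59% to 9.33% of counts in bone, 10.9% to 20.2% in condylar cartilage and 24.1% to 39.4% in MC. That share did not overlap between tissues and cannot be told apart from tissue. Levels are given as normalized counts, which are fragments on the CPM scale after library sizes were scaled by trimmed mean of M-values (TMM), and levels of different genes are compared only as FPKM, which also divides by exon length. The labelled tissues were checked against marker genes. The summed normalized count of 12 chondrocyte markers was 33288 to 40665 in condylar cartilage, 462 to 10819 in MC and 231 to 591 in bone. The lowest MC library, Fgfr2+/+ replicate 1, thus lay within the range of bone, although none of the 12 markers was at 0 in all MC libraries. All MC libraries lay below all condylar libraries, with medians of 3252.5 and 38468.5. The part of this low marker level in the MC levels of the members was not tested. The summed level of 10 osteoblast markers was 14634 to 33479 in bone and 1716 to 4332 in MC, where *Bglap* was at 0 throughout. In condylar cartilage it was 5026 to 6027 in 4 libraries, 12263 in Fgfr2+/+ replicate 3 and 19191 in Fgfr2+/S252W replicate 3. These 3 libraries were singled out after their values were seen, and values without them are given where a call, an order or a sign rests on them. *Fgfr2* itself did not pass between genotypes (limma log2 fold change -0.02 for bone, -0.31 for MC and 0.31 for condylar cartilage, adjusted p = 0.995, 0.553 and 0.998), and its level cannot check a point mutation.

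The sequence before the start of 3 of the genes is shown because these genes share the tissue pattern described next, high in MC and low in condylar cartilage. They are the genes whose 250 bases before the RefSeq start lay outside the Ensembl model of the gene, of the 6 members with a promoter entry (RefSeq, GRCm38.p6). *Msx1* was read at chr5:37824586-37824835 on the minus strand, *Hand2* at chr8:57320733-57320982 on the plus strand and *Dlx2* at chr2:71546755-71547004 on the minus strand, each 5′ to 3′ towards the gene. Capitals mark every match, on either strand, to TAATTA, a core bound by many homeodomains, or to CANNTG, the E-box bound by basic helix-loop-helix dimers. No matches of one overlapped the other.
Msx1: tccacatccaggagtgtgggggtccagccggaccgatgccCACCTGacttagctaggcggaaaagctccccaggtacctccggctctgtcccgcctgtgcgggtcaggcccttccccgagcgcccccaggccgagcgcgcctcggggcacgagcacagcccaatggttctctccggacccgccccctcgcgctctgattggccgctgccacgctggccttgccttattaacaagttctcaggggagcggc
Hand2: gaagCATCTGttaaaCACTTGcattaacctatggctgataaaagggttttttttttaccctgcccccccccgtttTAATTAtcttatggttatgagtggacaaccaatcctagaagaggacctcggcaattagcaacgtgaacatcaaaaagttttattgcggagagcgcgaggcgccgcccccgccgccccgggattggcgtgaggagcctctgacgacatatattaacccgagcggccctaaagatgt
Dlx2: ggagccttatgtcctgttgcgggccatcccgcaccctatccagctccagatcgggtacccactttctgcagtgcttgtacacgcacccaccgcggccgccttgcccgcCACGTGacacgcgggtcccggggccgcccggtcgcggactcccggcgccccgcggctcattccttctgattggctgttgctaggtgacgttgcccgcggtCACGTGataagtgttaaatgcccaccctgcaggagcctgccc

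TAATTA occurred 1 time before *Hand2* and 0 times before *Msx1* and *Dlx2*, and 4.84% of 32851 promoters of the same length held it. CANNTG occurred 1 time before *Msx1* and 2 times each before *Hand2* and *Dlx2*, and 66.2% of all promoters held it. The windows of *Msx1* and *Dlx2* were rich in G and C, at 68.0% and 66.4%, with 20 and 24 CG dinucleotides, against a median of 52.4% and 6 over all promoters. The *Hand2* window had 49.2% G and C and 15 CG dinucleotides. These matches describe the letters alone.

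The 10 genes differed mainly by tissue. *Msx1*, *Msx2*, *Dlx1*, *Dlx2*, *Dlx5*, *Dlx6* and *Hand2* were lowest in condylar cartilage, with all 6 condylar libraries below all 6 bone and all 6 MC libraries for each gene. *Dlx3* was lowest in MC, with all 6 MC libraries below all others. *Barx1* was highest in MC on average, with overlap between tissues, and *Hand1* was barely detected anywhere.

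**Figure D1:**
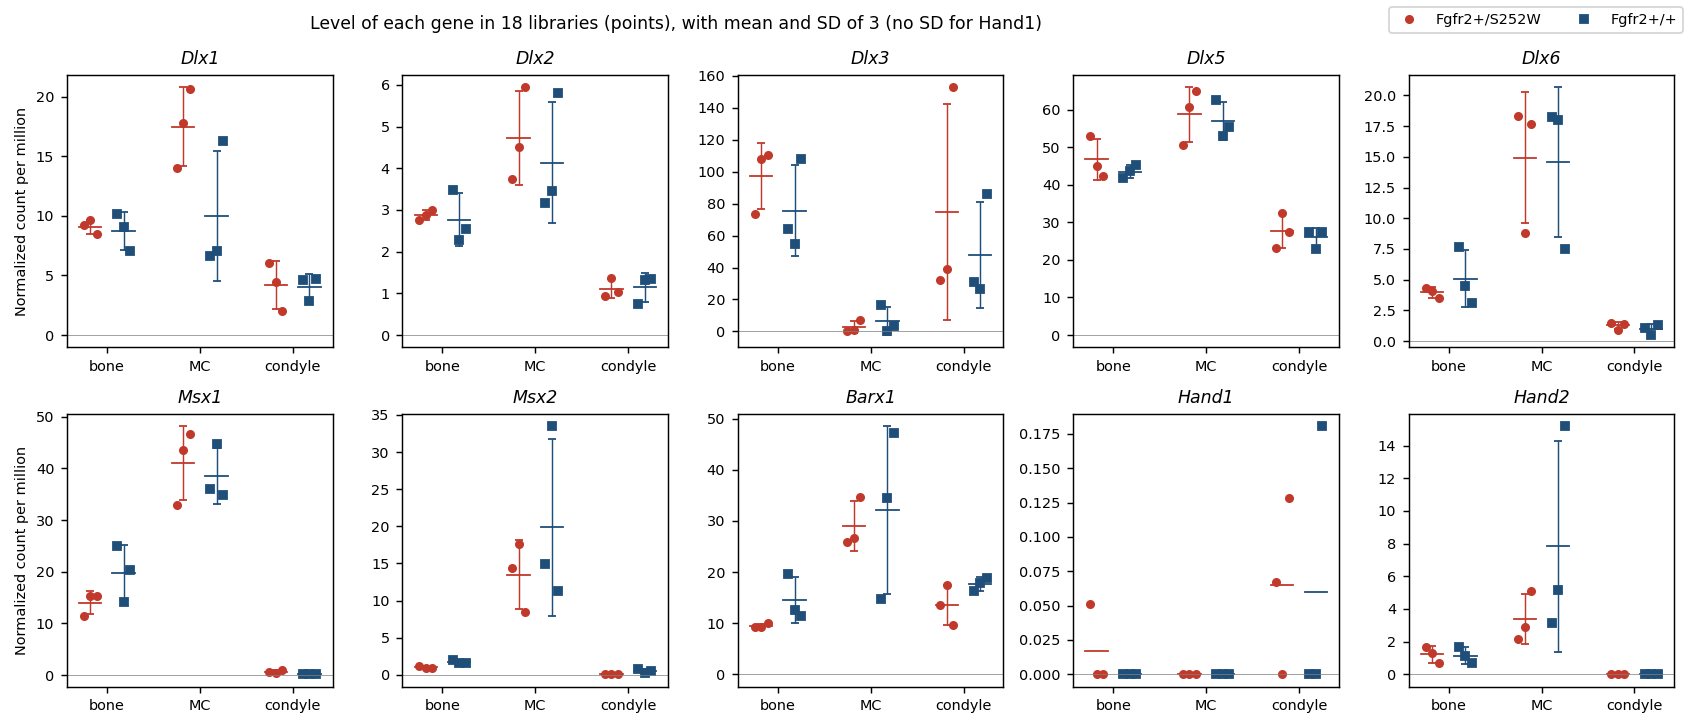
Normalized count on the CPM scale (linear axes, one scale per gene) of the 10 genes in bone, MC and condylar cartilage (condyle) of Fgfr2+/S252W (circles) and Fgfr2+/+ (squares) embryos, with 1 point per library, the mean of 3 as a bar and the SD as whiskers (none for *Hand1*). For 7 of the 10 genes all 6 condylar points lie below all 6 points of each of the other tissues, whereas *Dlx3* is lowest in MC.

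In the tests, 8 of the 10 genes passed the filter of 1 FPKM in at least 50% of libraries, which kept 11469 genes. *Hand1* and *Hand2* did not pass this filter. *Msx1*, *Msx2*, *Dlx2* and *Dlx6* stayed below 1 FPKM in all condylar libraries, with highest values of 0.530, 0.566, 0.556 and 0.665. These genes passed the filter through bone and MC alone, so their calls against condylar cartilage are not independent of the filter. Tissues were compared within embryos with limma, on voom-transformed counts with the inferred embryo as a term, and p-values were adjusted by the Benjamini-Hochberg method over all genes tested. In bulk samples of this kind, fewer cells of a type and less RNA per cell cannot be told apart. Between bone and MC, 5 of the 8 genes were lower in bone and 1 was higher, where 24.6% of all genes were lower and 24.7% higher. Between bone and condylar cartilage, 6 of the 8 were higher in bone and 0 lower, where 24.2% of all genes were higher and 22.6% lower. Between condylar cartilage and MC, 7 of the 8 were lower in condylar cartilage and 1 was higher, where 29.1% of all genes were lower and 28.5% higher. The median log2 fold change of the 8 genes was -0.94, 1.17 and -1.74 in the 3 comparisons, and that of all genes tested was 0.00 to -0.01. Without the embryo term the numbers of members called were the same, 6, 6 and 8. Groups of 6 libraries did not overlap for 3, 6 and 7 of the 8 genes, against 24.9%, 31.9% and 29.5% of all genes.

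**Figure D2:**
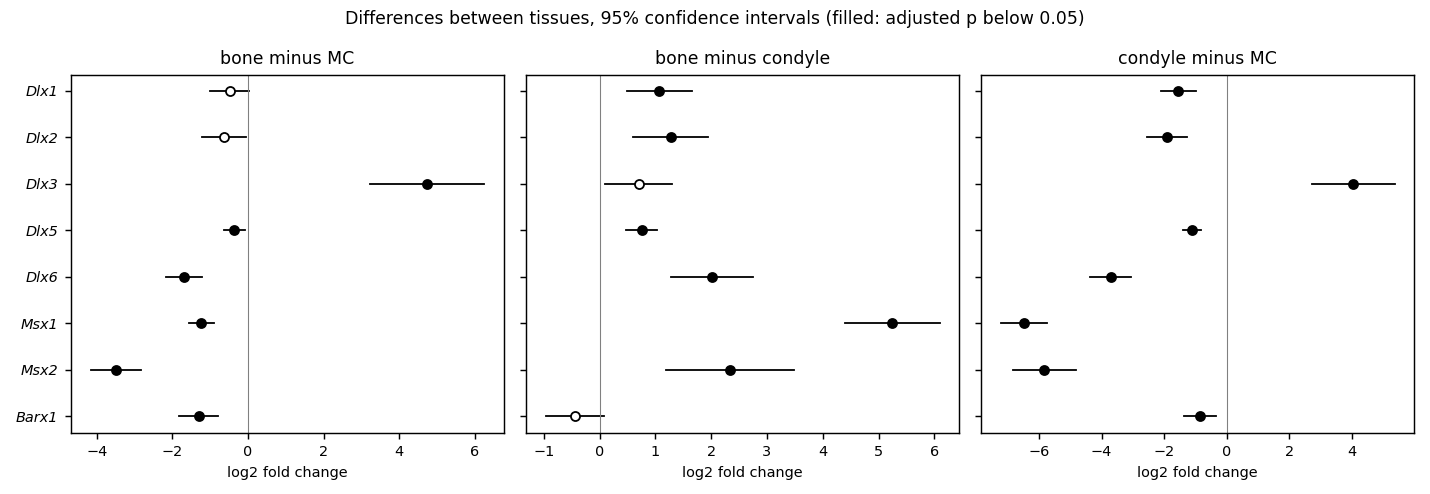
Log2 fold change between tissues (horizontal axes, averaged over both genotypes) of the 8 tested genes with 95% confidence intervals from limma, filled where the adjusted p was below 0.05. *Dlx3* lies opposite to the other genes in both comparisons with MC, and *Msx1* spans the widest range, from 5.24 in bone minus condyle to -6.48 in condyle minus MC.

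The Msx genes encode homeodomain repressors, and both were highest in MC and lowest in condylar cartilage. *Msx1* (chr5, 37820485 to 37824583, minus strand, 2 exons in the annotation) had normalized counts of 32.9, 43.5 and 46.6 in the MC of Fgfr2+/S252W embryos and 36.1, 44.8 and 34.9 in that of Fgfr2+/+ embryos. In bone it had 11.5, 15.3 and 15.3 in Fgfr2+/S252W and 24.9, 14.2 and 20.3 in Fgfr2+/+. In condylar cartilage it fell to 0.669, 0.344 and 1.03 in Fgfr2+/S252W and 0.301, 0.166 and 0.271 in Fgfr2+/+. The tissues were thus ordered MC, bone, condylar cartilage with no overlap between any of them. Condylar levels rested on 2 to 10 fragments per library, against 186 to 388 in MC. The mean in MC was 85.9 times that in condylar cartilage (log2 fold change of condylar cartilage minus MC -6.48 ± 0.35 SE, adjusted p = 1.92e-10). Bone exceeded condylar cartilage 36.6-fold (5.24 ± 0.40, adjusted p = 1.27e-08), and MC exceeded bone 2.35-fold (bone minus MC -1.23 ± 0.16, adjusted p = 7.24e-06).

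*Msx2* (chr13, 53467877 to 53473074, minus strand), which represses osteoblast genes that DLX5 activates, followed the same order. Its normalized counts in MC were 14.4, 17.6 and 8.40 in Fgfr2+/S252W and 14.9, 33.5 and 11.2 in Fgfr2+/+. In bone they were 1.13, 0.931 and 0.963 in Fgfr2+/S252W and 2.01, 1.54 and 1.52 in Fgfr2+/+. In condylar cartilage they were 0.0669, 0.0860 and 0.128 in Fgfr2+/S252W and 0.827, 0.249 and 0.541 in Fgfr2+/+. No tissue overlapped another, and the mutant condylar values were of 1 fragment per library. Unlike *Msx1*, *Msx2* dropped mainly between MC and bone, by a log2 fold change of -3.50 ± 0.32 (adjusted p = 2.13e-07), or 12.4-fold in the means. From bone to condylar cartilage the difference was 2.34 ± 0.55 (adjusted p = 0.00184), and condylar cartilage minus MC was -5.83 ± 0.47 (adjusted p = 1.80e-08). The bone-to-condyle difference of *Msx2* did not pass in the 9 Fgfr2+/+ libraries alone (1.71, adjusted p = 0.118).

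The linked pair *Dlx5* and *Dlx6*, on chromosome 6 with 9236 bases between them, differed in how far they fell. *Dlx5* (6877805 to 6882085, minus strand), a regulator of both jaw identity and osteoblast maturation, was at 50.6, 60.6 and 64.9 normalized counts in Fgfr2+/S252W MC and at 62.6, 53.0 and 55.3 in Fgfr2+/+ MC. In bone it was at 52.9, 45.1 and 42.3 in Fgfr2+/S252W and at 41.7, 43.6 and 45.2 in Fgfr2+/+. Condylar cartilage held 23.2, 32.6 and 27.4 in Fgfr2+/S252W and 27.4, 23.0 and 27.5 in Fgfr2+/+. *Dlx5* therefore varied little among libraries of one tissue, with a coefficient of variation of 9.02% for bone, 9.85% for MC and 13.1% for condylar cartilage. It was lower in condylar cartilage than in MC (-1.11 ± 0.13, adjusted p = 1.18e-06) and higher in bone than in condylar cartilage (0.75 ± 0.13, adjusted p = 0.000137). Its lower level in bone than in MC was small (-0.36 ± 0.13, adjusted p = 0.0272). That call was lost with a more inclusive filter (adjusted p = 0.0542), with either genotype alone, with scaling by totals without mitochondrial genes and Gm42418 (-0.26, adjusted p = 0.149), and without any of 6 single libraries (adjusted p from 0.0574 to 0.106).

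*Dlx6* (6863334 to 6868568, plus strand), which acts with *Dlx5* in the lower jaw, had a wider range. Its normalized counts in MC were 18.3, 8.78 and 17.7 in Fgfr2+/S252W and 18.2, 18 and 7.50 in Fgfr2+/+. Bone held 4.35, 4.12 and 3.48 in Fgfr2+/S252W and 7.63, 4.47 and 3.11 in Fgfr2+/+. Condylar cartilage held 1.47, 0.945 and 1.41 in Fgfr2+/S252W and 1.05, 0.498 and 1.35 in Fgfr2+/+. Each genotype had 1 low MC library, and the lowest MC library fell just below the highest bone library. *Dlx6* was lower in bone than in MC in 6 of 6 inferred embryos (-1.69 ± 0.23, adjusted p = 1.54e-05), higher in bone than in condylar cartilage (2.02 ± 0.35, adjusted p = 0.000133) and lower in condylar cartilage than in MC (-3.71 ± 0.31, adjusted p = 2.35e-08). Of its exon bases 104 (4.7%) overlap *Dlx6os2* on the other strand, and the counting did not use strand. *Dlx6os1*, a noncoding RNA gene of the locus, changed in the same directions (-1.16, 2.26 and -3.42, adjusted p = 0.000230, 1.80e-05 and 2.24e-08).

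Per length, *Dlx5* exceeded *Dlx6* in every library, but by different amounts. The ratio of their FPKM was 4.31 to 11.5 in MC, 8.51 to 22.7 in bone and 24.6 to 71.9 in condylar cartilage. The condylar ratios lay above those of all other libraries, and the ratios of MC and bone overlapped. Condylar *Dlx6* rested on 6 to 22 fragments per library, and the lowest condylar ratio, 24.6, lay close to the highest bone ratio, 22.7. The means were 40.6 and 6.65 FPKM in MC, 31.7 and 2.04 in bone, and 18.9 and 0.506 in condylar cartilage.

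*Dlx1* and *Dlx2*, paired on chromosome 2 with 9428 bases between them, are better known for the upper jaw. Per length both were below *Dlx5* in every tissue, whereas the mean of *Dlx1* exceeded that of *Dlx6* in bone (2.17 against 2.04 FPKM) and condylar cartilage (0.999 against 0.506 FPKM). *Dlx1* (71528113 to 71533980, plus strand) was at 6.60 to 20.7 normalized counts in MC (median 15.2), 7.06 to 10.2 in bone (median 9.12) and 2.05 to 6.03 in condylar cartilage (median 4.53). *Dlx2* (71543409 to 71546754, minus strand) was at 3.16 to 5.95 in MC (median 4.12), 2.27 to 3.48 in bone (median 2.82) and 0.751 to 1.38 in condylar cartilage (median 1.18). For both genes condylar cartilage stood below the other tissues without overlap, whereas MC and bone overlapped. Against MC, condylar cartilage was lower for *Dlx1* (-1.56 ± 0.26, adjusted p = 7.40e-05) and *Dlx2* (-1.92 ± 0.30, adjusted p = 3.17e-05). Against condylar cartilage, bone was higher for *Dlx1* (1.07 ± 0.28, adjusted p = 0.00413) and *Dlx2* (1.27 ± 0.32, adjusted p = 0.00324). These 2 calls did not pass in the 9 Fgfr2+/+ libraries alone (1.07 and 1.23, adjusted p = 0.0783 and 0.119). For Fgfr2+/+ embryos in the limma fit of all 18 libraries, both passed (1.06 and 1.23, adjusted p = 0.0456 and 0.0451).

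Neither gene of this pair passed between bone and MC. The log2 fold change of bone minus MC was -0.49 ± 0.25 for *Dlx1* (95% confidence interval -1.0 to 0.03, adjusted p = 0.113) and -0.64 ± 0.27 for *Dlx2* (-1.22 to -0.06, adjusted p = 0.0615). Without Fgfr2+/+ MC replicate 1, the library with few chondrocyte transcripts, both passed (-0.71 and -0.75, adjusted p = 0.0257 and 0.0464). *Dlx2* also passed without Fgfr2+/+ bone replicate 1 (-0.85, adjusted p = 0.0254). The part of the MC library's tissue content in these values was not tested. The FPKM ratio of *Dlx1* to *Dlx2* was 1.67 to 2.39 in bone, 1.24 to 2.38 in MC and 1.20 to 3.87 in condylar cartilage, so that it overlapped in all tissues. Of the exon bases of *Dlx1*, 335 (8.1%) overlap the antisense gene *Dlx1as*, which was at 0.669 to 3.15 normalized counts and passed no tissue comparison with filterByExpr (adjusted p = 0.469, 0.868 and 0.332).

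**Figure D3:**
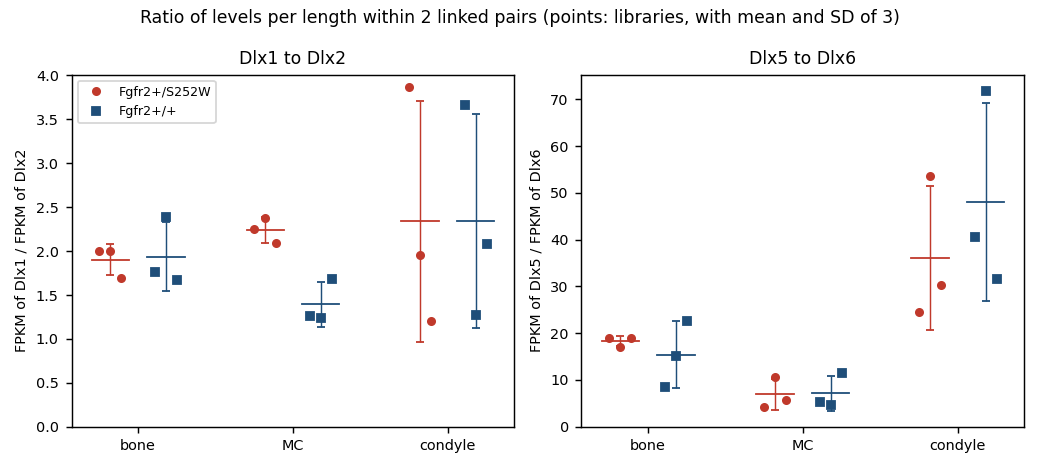
Ratio of FPKM within the pairs *Dlx1*-*Dlx2* and *Dlx5*-*Dlx6* (vertical axes, from 0) by tissue and genotype, with 1 point per library, the mean of 3 as a bar and the SD as whiskers. The *Dlx5* to *Dlx6* ratio of all 6 condylar libraries, 24.6 to 71.9, lies above that of all bone and MC libraries, and the *Dlx1* to *Dlx2* ratio overlaps between tissues. Condylar libraries held 6 to 22 fragments of *Dlx6* and 8 to 16 of *Dlx2*.

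*Dlx3* (chr11, 95120089 to 95125296, plus strand), whose product activates bone matrix genes, ran against the rest. In bone it was at 73.8, 108 and 111 normalized counts in Fgfr2+/S252W and at 63.8, 54.6 and 108 in Fgfr2+/+. In condylar cartilage it was at 32.4, 39.3 and 153 in Fgfr2+/S252W and at 30.8, 26.8 and 86.2 in Fgfr2+/+. In MC it was at 0.267, 1.13 and 7.35 in Fgfr2+/S252W and at 16.8, 0 and 3.19 in Fgfr2+/+. All MC libraries lay below all others, and both condylar libraries numbered 3 stood above the other 4. *Dlx3* was higher in bone than in MC (4.74 ± 0.72, adjusted p = 4.46e-05) and in condylar cartilage than in MC (4.04 ± 0.63, adjusted p = 2.96e-05). Without Fgfr2+/+ MC replicate 1, which had the highest *Dlx3* of the MC libraries, these differences were 5.96 and 5.30 (adjusted p = 6.45e-06 and 4.72e-06).

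Bone minus condylar cartilage was 0.70 ± 0.29 for *Dlx3* and narrowly missed the threshold (adjusted p = 0.0532), with bone higher in 5 of 6 inferred embryos. It passed in 6 of 24 alternatives. With all libraries kept it was 0.94 with limma sample quality weights (adjusted p = 0.000303). With totals without mitochondrial genes and Gm42418 it was 0.93 (adjusted p = 0.0152). Without both condylar libraries numbered 3 it was 1.17 (adjusted p = 0.00462). Without only the Fgfr2+/S252W or only the Fgfr2+/+ one it was 1.00 and 0.87 (adjusted p = 0.00675 and 0.0405), and without Fgfr2+/S252W bone replicate 3 it was 1.08 (adjusted p = 0.00415). The same 2 condylar libraries held 19191 and 12263 normalized counts of osteoblast markers, above the 5026 to 6027 of the other 4. The Fgfr2+/+ MC library with the most *Dlx3*, 16.8, was also the MC library with the most osteoblast markers, 4332. How much of the *Dlx3* level went with the osteoblast content of a library was not tested. *Dlx4*, the neighbor of *Dlx3* across 15159 bases, had 1.47 to 4.09 normalized counts in bone and 0.0669 to 1.67 in condylar cartilage. In MC *Dlx4* was at 0 in 5 of 6 libraries, with 4 fragments in the remaining one.

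**Figure D4:**
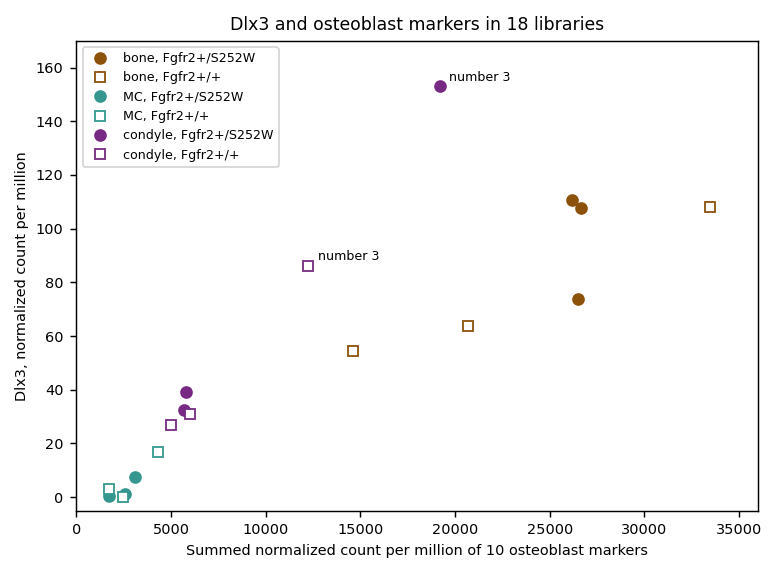
Normalized count of *Dlx3* (vertical axis) against the summed normalized count of 10 osteoblast markers (horizontal axis) in 18 libraries, colored by tissue and filled for Fgfr2+/S252W. The condylar libraries numbered 3, at 153 and 86.2 of *Dlx3*, stand apart from the other 4, at 26.8 to 39.3, on both axes.

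*Barx1* (chr13, 48662998 to 48666507, plus strand), a marker of proximal arch mesenchyme, overlapped in every pair of tissues. Its normalized counts in MC were 25.8, 26.6 and 34.7 in Fgfr2+/S252W and 14.8, 34.4 and 47.2 in Fgfr2+/+. Condylar cartilage held 13.6, 17.5 and 9.62 in Fgfr2+/S252W and 16.2, 17.9 and 18.9 in Fgfr2+/+. Bone held 9.21, 9.31 and 9.96 in Fgfr2+/S252W and 19.7, 12.5 and 11.3 in Fgfr2+/+. The low MC value of 14.8 came from Fgfr2+/+ replicate 1, and without that library MC lay above both other tissues. *Barx1* was lower than in MC both in bone (-1.31 ± 0.25, adjusted p = 0.000349) and in condylar cartilage (-0.86 ± 0.25, adjusted p = 0.00652), and in the 9 Fgfr2+/+ libraries alone neither passed (adjusted p = 0.0759 and 0.202). Without Fgfr2+/+ MC replicate 1 the differences were -1.60 and -1.17 (adjusted p = 2.82e-06 and 5.48e-05). Bone minus condylar cartilage was -0.44 ± 0.25 (95% confidence interval -0.97 to 0.08, adjusted p = 0.155), the only such value below 0 among the 8 genes. It passed in 2 of 24 alternatives, without Fgfr2+/+ bone replicate 1 (-0.67, adjusted p = 0.0207) and with limma sample quality weights (-0.51, adjusted p = 0.0171).

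The Hand genes encode basic helix-loop-helix factors of the distal arch, and only *Hand2* was detected at any depth. *Hand2* (chr8, 57320983 to 57324517, plus strand) was at 2.14, 2.93 and 5.08 normalized counts in Fgfr2+/S252W MC and at 3.16, 5.17 and 15.2 in Fgfr2+/+ MC. Bone held 1.69, 1.29 and 0.696 in Fgfr2+/S252W and 1.67, 1.10 and 0.678 in Fgfr2+/+. All 6 condylar libraries were at 0, which allows up to 3 fragments over the 6 libraries, or 0.0424 normalized counts. Against that floor MC was at least 132-fold and bone at least 28.0-fold higher, a bound that covers counting error only. Without Fgfr2+/+ MC replicate 3, the library at 15.2, MC was at least 87.1-fold higher. With edgeR's filterByExpr, which kept 14881 genes, *Hand2* was lower in bone than in MC (-2.0 ± 0.44, adjusted p = 0.00119), where 23.6% of those genes were lower. It passed against condylar cartilage as well, higher in bone (adjusted p = 6.27e-05, 25.5% of genes) and lower in condylar cartilage than in MC (adjusted p = 1.79e-07, 29.6% of genes). With all condylar libraries at 0, the filter kept *Hand2* through bone and MC alone, so these condylar calls add nothing to the bound.

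*Hand1* (chr11, 57828705 to 57832818, minus strand) had 5 fragments in the 18 libraries together, at most 2 in a library and 0 in 14 libraries. No comparison of *Hand1* was possible at this depth.

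Per length, the order of the genes differed by tissue. Mean FPKM in bone was 32.8 for *Dlx3* and 31.7 for *Dlx5*, which overlapped, followed by 8.75 for *Msx1* and 8.58 for *Barx1*, which also overlapped. In MC the order was *Dlx5* at 40.6, then *Barx1* at 21.9, *Msx1* at 20.5 and *Msx2* at 11.4. In condylar cartilage it was *Dlx3* at 23.3, *Dlx5* at 18.9 and *Barx1* at 11.2, with every other member at 0.999 or less. The place of *Dlx3* rested on both condylar libraries numbered 3, at 58.0 and 32.7 FPKM, and in the other 4 libraries *Dlx3* was at 10.2 to 14.9, below *Dlx5* at 16.2 to 22.9. Without them the order was *Dlx5* at 18.7, *Dlx3* at 12.3 and *Barx1* at 11.6, the last pair overlapping. *Dlx5* stood above *Barx1* without overlap in MC and in condylar cartilage, and *Barx1*, *Msx1* and *Msx2* overlapped in MC. *Dlx5* and *Barx1* were the only members above 1 FPKM in all 18 libraries.

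The genotypes were compared in each tissue to ask whether the S252W mutation altered these factors. None of the 8 tested genes passed in bone, MC or condylar cartilage by limma, edgeR or DESeq2. Of all genes, limma called 0.0872% in bone, 0% in MC and 0% in the condylar comparison. In MC, edgeR called 90 and DESeq2 423 of the 11469 genes, against 4 and 17 in bone and 0 and 3 in condylar cartilage. At an unadjusted p below 0.05 the count was 1 of 8 in bone (*Msx1*), 1 of 8 in MC (*Dlx1*) and 0 of 8 in condylar cartilage, against 8.13%, 15.4% and 3.06% of all genes. Libraries of the genotypes did not overlap for 2, 0 and 2 of the 8 genes, against 20.4%, 13.4% and 9.77% of all genes.

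**Figure D5:**
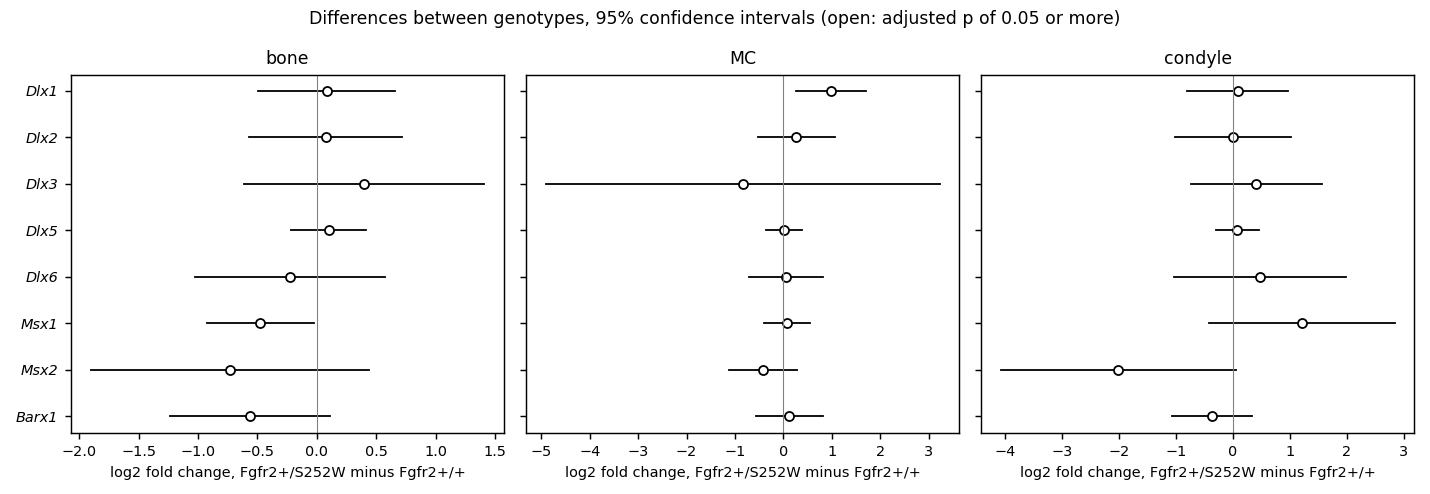
Log2 fold change of Fgfr2+/S252W minus Fgfr2+/+ (horizontal axes, scales differ between panels) of the 8 tested genes in bone, MC and condyle, with 95% confidence intervals from limma. All points are open since none had an adjusted p below 0.05, and the interval is narrow for *Dlx5* and wide for *Dlx3* in MC and *Msx2* in condyle.

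In bone, *Barx1*, *Msx2* and *Msx1* had the values below 0 that were farthest from it, and none passed. For *Barx1* all 3 mutant libraries lay below the Fgfr2+/+ values (-0.57 ± 0.32, unadjusted p = 0.0952, adjusted p = 0.704 by limma). For *Msx2* the same held (-0.73 ± 0.56, adjusted p = 0.829). *Msx1* overlapped between genotypes and had a log2 fold change of -0.48 ± 0.22 (unadjusted p = 0.0392, adjusted p = 0.602). Adjusted p for *Msx1* lay between 0.168 and 1 over all alternatives. Over the same alternatives the lowest adjusted p was 0.0869 for *Barx1* and 0.301 for *Msx2*. When single libraries were left out, the value of *Barx1* ranged from -0.74 to -0.33. The skeletal muscle markers differed between the same libraries, at 2.30 to 56.3 summed normalized counts in mutant and 53.7 to 377 in Fgfr2+/+ bone, and the connective tissue markers at 2337 to 2639 and 2501 to 3390. Osteoclast markers were at 1719 to 2377 in mutant and 921 to 1189 in Fgfr2+/+ bone, macrophage markers at 196 to 270 and 122 to 146, and erythroid markers at 323 to 614 and 1281 to 1528. The mitochondrial share was 36.0% and 34.8% in Fgfr2+/+ bone replicates 1 and 2 and 20.4% to 23.6% in the other 4 bone libraries. The part of these in the values was not tested.

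*Dlx1* in MC was at 14.0, 17.8 and 20.7 in Fgfr2+/S252W and at 6.60, 7.08 and 16.3 in Fgfr2+/+. One Fgfr2+/+ library thus lay within the mutant range (0.98 ± 0.35, unadjusted p = 0.0108, adjusted p = 0.199 by limma). Without Fgfr2+/+ replicate 1 the value was 0.67 (adjusted p = 0.480), and without Fgfr2+/+ replicate 3 it was 1.32 (adjusted p = 0.0836). Macrophage markers were at 81.6 to 130 summed normalized counts in mutant and 36.3 to 72.3 in Fgfr2+/+ MC, and osteoclast markers at 64.0 to 70.5 and 89.4 to 257. Neither list overlapped between genotypes, and their part in the values was not tested. Leaving Fgfr2+/+ replicate 1 out also turned the sign of *Barx1* in MC, from 0.13 to -0.48 (adjusted p = 0.891 and 0.456), and of *Dlx3*, from -0.84 to 1.27 (adjusted p = 0.871 and 0.880).

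In condylar cartilage *Msx1* was higher and *Msx2* lower in all 3 mutant libraries than in all 3 Fgfr2+/+ libraries. The log2 fold changes were 1.20 ± 0.78 for *Msx1* and -2.02 ± 0.99 for *Msx2* (unadjusted p = 0.140 and 0.0553, adjusted p = 0.998 for both). These rest on 22 against 9 fragments of *Msx1* and 3 against 20 of *Msx2*, summed over 3 libraries each. Connective tissue markers also did not overlap between these libraries, at 1254 to 1355 summed normalized counts in mutant and 1013 to 1190 in Fgfr2+/+ condylar cartilage, and their part in the values was not tested. *Msx2* was below 0 in all 3 tissues (-0.73, -0.43 and -2.02), and none of these passed. When single libraries were left out, it ranged from -0.81 to -0.61 in bone and from -0.68 to -0.0552 in MC. In condylar cartilage the range was -2.45 to -1.64.

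*Dlx5* had the tightest bounds. Its difference between genotypes was 0.10 in bone (95% confidence interval -0.22 to 0.41), 0.01 in MC (-0.35 to 0.38) and 0.08 in condylar cartilage (-0.30 to 0.45). The intervals of *Dlx3* were wider, -0.61 to 1.41 in bone, -4.91 to 3.23 in MC and -0.75 to 1.57 in condylar cartilage. The condylar value of *Dlx3*, 0.41, was -0.21 without Fgfr2+/S252W replicate 3, 0.92 without Fgfr2+/+ replicate 3 and 0.30 without both. For *Hand2*, tested with filterByExpr, the values were 0.13 ± 0.62 in bone and -0.83 ± 0.55 in MC (adjusted p = 0.996 and 0.490). *Dlx6*, at -0.23, 0.06 and 0.48, and *Dlx2*, at 0.08, 0.26 and 0.0032, did not pass in bone, MC or condylar cartilage (adjusted p from 0.784 to 0.999).

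The difference of the genotype effect between tissues was tested with the inferred embryo as a term. No member passed for bone against MC, bone against condylar cartilage or condylar cartilage against MC, where 0.0349%, 0% and 0% of all genes passed. At an unadjusted p below 0.05 the counts were 0, 1 and 0 of 8 genes, against 9.12%, 2.86% and 10.3% of all genes. That gene was *Msx1*, whose genotype effect was lower in bone than in condylar cartilage by a log2 difference of -1.74 ± 0.81 (unadjusted p = 0.0458, adjusted p = 1.00). The bone-to-MC difference of *Dlx1* was -0.89 in Fgfr2+/S252W and -0.08 in Fgfr2+/+ embryos (adjusted p = 0.0397 and 0.891), and the difference between them did not pass (-0.81 ± 0.49, adjusted p = 0.619). Adjusted p for all 8 genes in the 3 comparisons lay between 0.558 and 1.00, and for *Hand2* with filterByExpr the difference of bone minus MC was 1.14 ± 0.88 (adjusted p = 0.693).

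Other transcription factors of the jaw were examined from a list of 39, of which 20 passed the filter. Between condylar cartilage and MC, 17 were lower in condylar cartilage and 1 was higher, against 29.1% and 28.5% of all genes. Between bone and MC, 14 were lower in bone and 2 higher, against 24.6% and 24.7%. Between bone and condylar cartilage, 15 were higher in bone and 1 lower, against 24.2% and 22.6%. The median log2 fold changes were -2.68, -1.52 and 1.61, as against 0.00 to -0.01 over all genes. *Six2*, a homeobox gene of craniofacial mesenchyme, was lower in condylar cartilage than in MC by a log2 fold change of -4.42 ± 0.28 (adjusted p = 1.04e-09). *Foxf1*, a forkhead gene, and *Eya1*, a transcriptional coactivator, had -6.39 ± 0.44 and -4.97 ± 0.36 (adjusted p = 2.50e-09 and 4.57e-09), and *Alx4*, another homeobox gene, had -3.21 ± 0.20 (adjusted p = 9.04e-10).

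Between bone and MC, *Prrx1* and *Pitx1*, homeobox genes of mesenchyme and of the lower jaw, were lower in bone (-1.73 ± 0.16 and -2.46 ± 0.24, adjusted p = 2.30e-07 and 4.03e-07), as were *Alx4*, *Eya1* and *Six2* (-2.05, -2.77 and -2.10). Between bone and condylar cartilage, *Foxf1*, *Lhx8*, a homeobox gene of the oral mesenchyme, and *Six2* were higher in bone (4.07, 2.17 and 2.32, adjusted p = 3.85e-06, 1.08e-05 and 1.19e-05). No gene of the list passed between genotypes in any tissue, with 2, 5 and 1 of 20 at an unadjusted p below 0.05 in bone, MC and condylar cartilage, against 8.13%, 15.4% and 3.06% of all genes. The summed level of 7 connective tissue markers was 2337 to 3390 in bone, 1559 to 2417 in MC and 1013 to 1355 in condylar cartilage, so it was also lowest in condylar cartilage. Unlike the Msx genes it was highest in bone, and macrophage, osteoclast and endothelial markers were also highest in bone and lowest in condylar cartilage. Macrophage markers were at 122 to 270 in bone, 36.3 to 130 in MC and 3.88 to 13.9 in condylar cartilage, and osteoclast markers at 921 to 2377, 64.0 to 257 and 12.4 to 28.5. Endothelial markers were at 192 to 258, 20.6 to 84.4 and 5.49 to 23.7, with overlap between MC and condylar cartilage. The part of these cells in the tissue differences, those of the members included, was not tested.

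Of 16 genes of the signals that act upstream in the arch, 12 passed the filter. They moved in both directions. In bone 2 were higher and 5 lower than in MC (24.7% and 24.6% of all genes), and 5 were higher and 4 lower than in condylar cartilage (24.2% and 22.6%). In condylar cartilage 3 were higher and 6 lower than in MC (28.5% and 29.1%). *Ednra*, the endothelin 1 receptor, had the pattern of *Msx1*, at -1.31 ± 0.28, 3.91 ± 0.57 and -5.21 ± 0.50 (adjusted p = 0.00107, 2.39e-05 and 1.13e-07). *Ece1*, which activates endothelin 1, was higher in bone (1.21 ± 0.15) and MC than in condylar cartilage (-1.54 ± 0.15 for condylar cartilage minus MC, adjusted p = 1.39e-07). *Jag1*, a Notch ligand, was lower in bone and in condylar cartilage than in MC (-2.05 ± 0.25 and -4.32 ± 0.37, adjusted p = 5.45e-06 and 3.20e-08). *Mef2c*, a transcription factor downstream of EDNRA that also acts in hypertrophic chondrocytes, ran the other way (2.27 ± 0.17 and 3.16 ± 0.17, adjusted p = 4.06e-08 and 1.35e-10). *Bmp7*, a ligand upstream of the Msx genes, was highest in condylar cartilage (1.12 ± 0.16 against MC, adjusted p = 1.56e-05). No gene of this list passed between genotypes in bone, MC or condylar cartilage, with 0, 3 and 2 of 12 at an unadjusted p below 0.05 in these tissues, against 8.13%, 15.4% and 3.06% of all genes.

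The partners of the Hand factors were represented by E proteins, Id proteins and Twist proteins, 9 genes of which 7 passed the filter. *Tcf4* and *Tcf12*, which encode E proteins, were lower in condylar cartilage than in MC (-1.91 ± 0.13 and -1.46 ± 0.10, adjusted p = 2.25e-09 and 3.33e-09). *Tcf3*, the remaining E protein gene, and *Twist1* were lower as well (-1.14 ± 0.17 and -1.42 ± 0.27, adjusted p = 1.46e-05 and 0.000242), and *Id1*, whose product blocks E proteins, was higher (1.40 ± 0.24, adjusted p = 7.13e-05). In this comparison 5 were lower and 1 higher, against 29.1% and 28.5% of all genes. In bone 3 were lower and 2 higher than in MC, against 24.6% and 24.7%, and 5 were higher than in condylar cartilage, against 24.2%. No gene passed between genotypes, and 0 of 7 had an unadjusted p below 0.05 in any tissue, where 3.06% to 15.4% of all genes did.

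Osteoblast genes known to respond to DLX5 or MSX2 numbered 8, of which 6 passed the filter. All 6 were higher in bone than in MC and all 6 were higher in condylar cartilage than in MC, against 24.7% and 28.5% of all genes. In bone 3 of the 6 were higher than in condylar cartilage, against 24.2%. *Sp7*, the osteoblast transcription factor osterix, was 2.67 ± 0.38 higher in bone than in MC and 2.26 ± 0.34 higher in condylar cartilage than in MC on the log2 scale (adjusted p = 2.16e-05 and 2.26e-05). *Runx2*, its upstream regulator, was 1.38 ± 0.25 higher in condylar cartilage than in MC (adjusted p = 0.000167). As for *Dlx3*, MC was the lowest tissue, while *Dlx5*, *Msx1* and *Msx2* were highest in MC. None passed between genotypes, and 0 of 6 had an unadjusted p below 0.05 in any tissue, where 3.06% to 15.4% of all genes did.

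The genes most like each member were taken from the correlation of log2 levels over all 18 libraries, which share tissue and depth. *Dlx3* was most like *Sp7* (r = 0.981), followed by *Csrnp3* and *Ptprz1*. *Msx1* was most like *Cask*, *Tbc1d16* and *Amot* (r = 0.984, 0.983 and 0.982), and *Msx2* was most like *Rbms3*, *Svep1* and *Nlgn2* (r = 0.979, 0.978 and 0.967). The genes named for *Msx1* and *Msx2* did not overlap. *Dlx5* was most like *Cemip2*, *Nhs* and *Svil* (r = 0.968, 0.967 and 0.961), and *Dlx6* was most like *Ephb4*, *Efnb3* and *Ttyh3* (r = 0.963, 0.960 and 0.956). *Dlx2* was most like *Ssbp3*, *Nhs* and *Plxdc2* (r = 0.963, 0.961 and 0.955), *Dlx1* was most like *Kif13a* (r = 0.937), and *Barx1* was most like *Aff3* at the lowest value of the 8 (r = 0.914).

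Of the 28 pairs of tested members, 26 had an r nearer 0 once the mean of each of the 6 groups was removed. Over 18 libraries r was 0.818 between *Msx1* and *Msx2*, 0.893 between *Dlx5* and *Dlx6* and 0.873 between *Dlx1* and *Dlx2*. Within groups r was 0.260, -0.02 and 0.464. The 2 exceptions were *Dlx1* with *Barx1*, from 0.495 to 0.672, and *Dlx2* with *Barx1*, from 0.531 to 0.733. *Dlx3* correlated negatively with all 7 other tested members over the 18 libraries, from -0.480 with *Dlx5* to -0.838 with *Msx2*. Within groups it was negative with *Msx2* (-0.598), *Barx1* (-0.397) and *Dlx1* (-0.0751) and positive with *Dlx5* (0.477), *Msx1* (0.227), *Dlx2* (0.223) and *Dlx6* (0.0566).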

How the data were processed

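Gene-level counts were analysed from 18 libraries made from laser-captured tissue, with 3 libraries in each of 6 groups. The deposited counts were made by the authors with featureCounts 1.5.0-p1 on exons of Ensembl release 75 genes, without use of strand, after trimming with cutadapt and alignment to mm10 with STAR (file headers, labels and the study's methods). RNA had been amplified with the NuGEN Ovation system before Nextera XT libraries were made, and the reads carry no molecular identifiers, so that fragments are not independent molecules. Library totals of 8218548 to 15585778 include 19.4% to 38.1% from mitochondrial genes and 5.59% to 39.4% from the gene Gm42418, which lowers the effective depth. Library sizes after TMM scaling were 13632000 to 22559500 in bone, 7796150 to 14937000 in condylar cartilage and 4441240 to 10762100 in MC.

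In R 4.3.3, counts were scaled by TMM (edgeR 4.0.16) and a gene was tested where its FPKM exceeded 1 in 50% or more of the 18 libraries. Genotypes were compared within each tissue with limma 3.58.1 after voom, with 1 mean per group. Tissue comparisons, and differences of the genotype effect between tissues, had the embryo as a term. Embryos were matched across tissues by inference from the sample codes in the labels. Deviations from group means of libraries from the same embryo correlated at -0.0014 on average over 18 pairs, and those from different embryos of one genotype at 0.00072 over 36 pairs. Deviations cancel out within each group, so these averages are tied to each other. The inferred match therefore rests on the sample codes alone. Nothing names separate litters, so p-values measure the spread between these embryos. Adjusted p-values are by the Benjamini-Hochberg method over all genes tested, at a threshold of 0.05. The limma fits of the genotype effect in bone and of condylar cartilage minus MC were run on simulated counts without an embryo effect. The other comparisons and the alternatives were not simulated. The alternatives were filterByExpr, no filter, another scaling, edgeR, DESeq2 1.42.0, sample quality weights, blocks, one genotype alone and leaving out each library. Results without Fgfr2+/+ MC replicate 1 come from leaving out each library, but this library was singled out after the data were seen. Leaving out both condylar libraries numbered 3, and totals without mitochondrial genes and Gm42418, were added after the data were seen. The same holds for condylar levels and the *Hand2* bound with libraries left out.

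The members and gene lists were chosen with earlier results of these data known. The naming rule covers all 10 members in every comparison, and members without a value of their own in the text are covered there by a range or a count. Other lists are given by counts and by at most 5 genes per list and comparison, those with the smallest p past the threshold, of which some are not reported here, and the 3 genes with the highest correlation to each tested member are the likeness lists. *Dlx1as*, *Dlx4*, *Dlx6os1* and *Dlx6os2* were included as neighbors or antisense genes. Promoter sequences were read from RefSeq (GRCm38.p6), 250 bases before each start. Positions are those of the count files (mm10).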

Additional observations from a re-analysis of the deposited data

How the results depend on the processing

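No member passed between genotypes under any alternative that was run, and no tissue effect of a member changed direction. Fewer members passed between bone and condylar cartilage in the 9 Fgfr2+/+ libraries alone, 3 in place of 6. *Dlx1* and *Dlx2*, which were among those lost, passed for Fgfr2+/+ embryos in the fit of all 18 libraries. With a replicate block on the embryo numbers of the labels, which do not pair embryos of different genotype, 0 members passed in each genotype comparison, as without it, and the same numbers correlated at 0.103 for bone, -0.12 for MC and 0.169 for condylar cartilage.

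Some genotype effects changed sign, most of them near 0. The log2 fold change of *Dlx5* in MC was -0.0062 with filterByExpr and -0.0126 with no filter. That of *Barx1* in MC was -0.14 with edgeR, -0.13 with DESeq2, -0.11 with sample quality weights and -0.0164 with the replicate block. That of *Dlx2* in condylar cartilage was -0.0335 with edgeR, -0.0275 with DESeq2 and -0.0157 with totals without mitochondrial genes and Gm42418, and that of *Dlx3* in MC, -0.84 in the report, was 0.30 with quality weights. The cause was not tested.

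When single libraries were left out, effects ranged in bone from -0.0769 to 0.20 for *Dlx1*, from -0.0365 to 0.24 for *Dlx2* and from -0.57 to 0.11 for *Dlx6*. In MC they ranged from -2.75 to 1.27 for *Dlx3*, from -0.0617 to 0.14 for *Dlx5*, from -0.29 to 0.37 for *Dlx6*, from -0.0304 to 0.25 for *Msx1* and from -0.48 to 0.47 for *Barx1*. In condylar cartilage they ranged from -0.28 to 0.41 for *Dlx1*, from -0.28 to 0.15 for *Dlx2*, from -0.21 to 0.92 for *Dlx3* and from -0.0575 to 0.22 for *Dlx5*.

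Over all genes, 10 passed between genotypes in bone, with 0 to 589 under the alternatives (the most with sample quality weights). In MC 0 passed, with up to 423 (DESeq2), and in condylar cartilage 0, with up to 3 (DESeq2). For the difference of effects between bone and MC, 4 genes passed, with 0 to 68, and for the other two differences 0 passed, with up to 6 and 40. Between tissues 5657, 5370 and 6613 genes passed for bone against MC, bone against condylar cartilage and condylar cartilage against MC, with 2784 to 12952, 3311 to 8036 and 4487 to 10564 under the alternatives. Totals without mitochondrial genes and Gm42418 moved the median of all genes by 0.21 between bone and condylar cartilage, where 67.6% of calls were then higher in bone, against 51.7%. Condylar levels of *Msx1*, *Msx2*, *Hand2*, *Dlx2* and *Dlx6*, and all levels of *Hand1*, are limited by depth.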
